A study of Homo sapiens with 12 samples.

Results

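The genes described here are MYC and 48 genes that serve ribosome production, listed by name, and 42 of the 49 were measured by a probe set that names 1 gene. NOP56, DKC1, BOP1 and PPAN shared their probe sets with other genes, and GNL3, EBNA1BP2 and DDX18 had no probe set in the annotation used here, so no value is given for these 7. MYC is a transcription factor that pairs with MAX, binds the DNA letters CACGTG, known as the E-box, and drives growth. In dividing cells its targets include the genes for RNA polymerase I, which transcribes the ribosomal RNA precursor in the nucleolus, and the proteins that modify, cut and fold that precursor into the small and large ribosomal subunits. Polyamine and pyrimidine synthesis genes are classic MYC targets as well, and MYC is known to be shut off early when myeloid leukaemia cells are driven to stop dividing and mature.

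The cells were U937, an established human myeloid leukaemia line with monocyte features. All were transduced, with a vector for EVI1, a zinc finger transcription factor encoded at MECOM, or with the same vector left empty. The 4 groups were EVI1-labelled cells with TPA, EVI1-labelled cells with ethanol, empty vector cells with TPA and empty vector cells with ethanol, with 3 biological replicates each per the design text, and 12 arrays in all. TPA, a phorbol ester and activator of protein kinase C, makes U937 cells mature towards macrophages, and it was given at 50 ng/ml for 24 h, with ethanol as its solvent. The promoter of the vector, and whether a population is 1 clone or came from separate transductions, are not given in the sources used here, so p-values between the populations may measure only the spread between cultures.

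Values are log2 signals, in which 1 unit is a doubling, and each gene is read by the probe set with its highest mean. A gene was called at an adjusted p under 0.05 by limma with Benjamini-Hochberg adjustment over 19775 genes. Replicates correlated at 0.993 to 0.998. The 5 probe sets of MECOM lay between 2.59 and 3.32 on the single arrays, and their means no higher than percentile 13.7 among all non-control probe sets. They did not differ between the populations (smallest limma adjusted p = 0.118). The vector label was thus not borne out by these probe sets, and the cells are called EVI1-labelled here. Whether these probe sets can read a transcript made from the vector is unknown. Their low signal therefore does not show that EVI1 from the vector was absent. The 13 monocyte and macrophage markers averaged, per array, 8.75 to 9.02 in EVI1-labelled cells with TPA, against 6.62 to 6.84 with ethanol, and 9.11 to 9.39 in empty vector cells with TPA, against 6.87 to 6.97 with ethanol. Of the monocyte markers 9 lay above the lowest array median, 5.07, in all 4 groups, and FCGR1A lay below it in all of them. With TPA 7 of these markers in EVI1-labelled and 10 in empty vector cells were called higher. LYZ was called lower in both, at 11.23 with TPA against 12.86 in EVI1-labelled and 11.58 against 12.87 in empty vector cells. CEBPA was called lower in empty vector cells alone, at 10.53 with TPA against 11.16. Of markers of other cell types, 0 of 9 lymphoid ones were called higher with TPA, and PAX5 was lower, at 5.54 with TPA against 8.23 with ethanol in EVI1-labelled and 4.86 against 7.33 in empty vector cells. Of 5 erythroid markers KLF1 was lower in both populations, and HBB was higher in empty vector cells, at 6.06 with TPA against 5.58. Of 10 epithelial and fibroblast markers COL1A2 alone was called, higher in empty vector cells at 4.39 with TPA against 4.05, both below 5.07. Whole-series measures of RNA that moved with TPA were the 3' minus 5' signal gap of ACTB, at 1.31 ± 0.17 with TPA against 1.85 ± 0.13 with ethanol, and the mean of the poly-A spike-in controls, at 7.43 ± 0.28 with TPA against 7.07 ± 0.17 with ethanol (SD, n = 6 each, two-sided exact permutation p = 0.00216 and 0.013). Empty vector TPA replicate 2 had the highest spike-in mean, 7.96. The same gap of GAPDH was 0.40 ± 0.11 with TPA against 0.57 ± 0.15 with ethanol (exact permutation p = 0.0476), and that call was lost without any 1 of 9 arrays. The part of any of these in the results below was not tested.

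The E-box was looked for in RefSeq promoters of GRCh38.p14, from 250 bases before to 50 after each gene's start, and 40 of the 49 listed genes had an entry. The letters CACGTG, which read the same on both strands, stood in the window of 13 of the 35 measured members with an entry, 37.1%, against 8.9% of 15843 protein coding genes. In 12 of these 13 a copy lay within 50 bases of the start, against 548 of 1407 protein coding genes with the letters, 38.9%. The 4 windows below belong to the members with the largest falls with TPA, averaged over both populations, among these 13. The capitals mark the E-box.
SRM, chr1:11059969-11060268, minus strand: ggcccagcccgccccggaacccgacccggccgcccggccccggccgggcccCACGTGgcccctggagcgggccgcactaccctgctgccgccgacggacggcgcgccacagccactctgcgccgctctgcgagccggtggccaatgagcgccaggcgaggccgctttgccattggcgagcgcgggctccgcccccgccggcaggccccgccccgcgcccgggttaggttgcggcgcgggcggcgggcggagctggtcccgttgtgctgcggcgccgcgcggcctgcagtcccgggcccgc
MRTO4, chr1:19251555-19251854, plus strand: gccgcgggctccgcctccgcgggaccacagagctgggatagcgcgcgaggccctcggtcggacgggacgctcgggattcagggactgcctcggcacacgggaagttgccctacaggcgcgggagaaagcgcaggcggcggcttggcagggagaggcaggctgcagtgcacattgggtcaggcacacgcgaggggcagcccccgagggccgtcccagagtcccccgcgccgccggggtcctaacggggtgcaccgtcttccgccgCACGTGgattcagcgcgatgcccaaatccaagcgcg
WDR43, chr2:28894417-28894716, plus strand: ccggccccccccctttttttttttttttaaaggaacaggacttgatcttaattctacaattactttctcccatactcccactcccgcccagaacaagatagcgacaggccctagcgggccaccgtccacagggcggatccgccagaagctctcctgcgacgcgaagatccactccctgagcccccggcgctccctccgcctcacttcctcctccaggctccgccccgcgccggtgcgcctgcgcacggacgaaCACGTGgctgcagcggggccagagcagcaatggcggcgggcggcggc
NOP14, chr4:2963357-2963656, minus strand: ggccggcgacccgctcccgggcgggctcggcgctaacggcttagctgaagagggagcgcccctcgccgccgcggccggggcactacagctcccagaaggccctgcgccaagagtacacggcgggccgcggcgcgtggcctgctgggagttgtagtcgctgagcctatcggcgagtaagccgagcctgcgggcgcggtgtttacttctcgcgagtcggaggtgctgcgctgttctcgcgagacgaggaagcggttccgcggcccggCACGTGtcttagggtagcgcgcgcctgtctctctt
The E-box began at position 15 of MRTO4, 4 of WDR43 and 16 of NOP14, counted from the start, and at -199 of SRM. Members with the letters had a median TPA difference, averaged over both populations, of -1.30 and those without them -1.27. A match is a description of these letters and does not show binding.

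The first question was what TPA does to this programme. Nearly all of it was lower: 41 of the 42 measured members fell in EVI1-labelled cells and 41 of 42 in empty vector cells, against 20.6% and 22.5% of all genes. The median difference of the members was -1.28 in EVI1-labelled and -1.40 in empty vector cells, against 0.00 and 0.02 over all genes. By at least 1, a halving of the signal, 30 members fell in EVI1-labelled and 34 in empty vector cells, against 6.8% and 8.02% of all genes. The same 41 fell in both populations, against 18.7% of all genes, and all 42 members were below 0 in each of the 3 same-number pairs of arrays in both populations. TPA and ethanol arrays did not overlap, TPA lower, in 42 members in EVI1-labelled and 41 in empty vector cells, against 23.8% and 25.3% of all genes. The arrays read RNA pooled over a culture, so fewer cells with a transcript and less of it per cell cannot be told apart, and a change in total RNA per cell is not seen in these values.

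MYC itself showed the largest fall of the 42 in both populations. The signal of MYC with TPA was 9.39, 9.61 and 9.67 in EVI1-labelled cells, against 12.13, 12.08 and 12.21 with ethanol, and 9.27, 9.32 and 9.48 in empty vector cells, against 12.18, 12.19 and 12.27 with ethanol. The 3 arrays with TPA lay far below the 3 with ethanol in each population. The difference was -2.58 ± 0.09 in EVI1-labelled and -2.86 ± 0.09 in empty vector cells, or 5.99-fold lower in EVI1-labelled and 7.24-fold lower in empty vector cells (limma adjusted p = 6.13e-11 and 1.7e-11). Among 19775 genes this placed MYC 230th from the lowest difference in EVI1-labelled and 241st in empty vector cells.

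**Figure D1:**
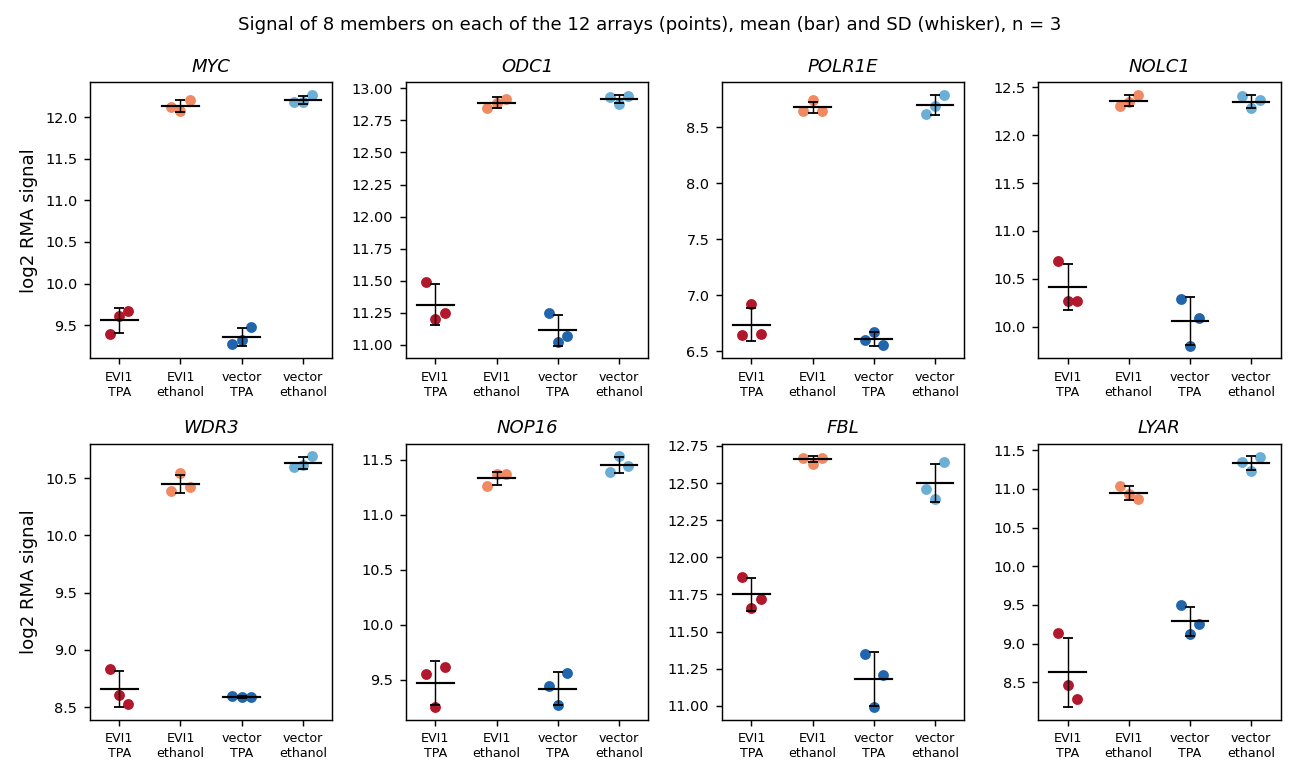
The log2 RMA signal of 8 members on the 12 arrays, with points for arrays and a bar and whisker for the mean and SD of each group of 3. In every panel the arrays with TPA lie below those with ethanol, with an MYC difference of -2.58 in EVI1-labelled and -2.86 in empty vector cells, and in the FBL panel the EVI1-labelled cells with TPA lie above the empty vector cells with TPA.

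The enzymes of polyamine and pyrimidine synthesis, 3 of 3, fell in both populations, with a median of -2.00 in EVI1-labelled and -1.97 in empty vector cells. In EVI1-labelled cells SRM was at 9.18, 9.10 and 9.43 with TPA, against 11.28, 11.38 and 11.25 with ethanol, and in empty vector cells at 8.94, 8.82 and 9.25 with TPA, against 11.38, 11.31 and 11.40 with ethanol. SRM, spermidine synthase, differed by -2.07 ± 0.11 in EVI1-labelled and -2.36 ± 0.11 in empty vector cells. CAD read 7.35, 7.10 and 7.52 in EVI1-labelled cells with TPA, against 9.40, 9.41 and 9.17 with ethanol, and 7.49, 7.66 and 7.63 in empty vector cells with TPA, against 9.72, 9.58 and 9.40 with ethanol. CAD, the enzyme that opens pyrimidine synthesis, differed by -2.00 ± 0.12 in EVI1-labelled and -1.97 ± 0.12 in empty vector cells. The signal of ODC1 with TPA was 11.49, 11.20 and 11.25 in EVI1-labelled cells, against 12.85, 12.89 and 12.92 with ethanol, and 11.25, 11.02 and 11.07 in empty vector cells, against 12.93, 12.88 and 12.94 with ethanol. ODC1 makes putrescine, the first polyamine, and differed by -1.57 ± 0.09 in EVI1-labelled and -1.80 ± 0.09 in empty vector cells. In none of these 3 genes did the TPA and ethanol arrays overlap, and the largest of the 6 limma adjusted p was 6.67e-09.

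All 4 RNA polymerase I subunits fell in both populations, with unlike sizes. In EVI1-labelled cells POLR1E was at 6.65, 6.92 and 6.66 with TPA, against 8.65, 8.74 and 8.65 with ethanol, and in empty vector cells at 6.60, 6.67 and 6.56 with TPA, against 8.62, 8.69 and 8.79 with ethanol. POLR1E, part of the dimer that helps the enzyme start and elongate, differed by -1.94 ± 0.09 in EVI1-labelled and -2.09 ± 0.09 in empty vector cells. POLR1B read 8.55, 8.35 and 8.42 in EVI1-labelled cells with TPA, against 10.14, 10.18 and 10.07 with ethanol, and 8.62, 8.44 and 8.40 in empty vector cells with TPA, against 10.26, 10.27 and 10.33 with ethanol. POLR1B, which helps form the active centre, differed by -1.69 ± 0.08 in EVI1-labelled and -1.80 ± 0.08 in empty vector cells. The signal of POLR1C with TPA was 9.22, 8.94 and 9.19 in EVI1-labelled cells, against 10.11, 10.21 and 10.24 with ethanol, and 9.27, 9.02 and 9.26 in empty vector cells, against 10.21, 10.30 and 10.32 with ethanol. POLR1C, a subunit shared with RNA polymerase III, differed by -1.07 ± 0.10 in EVI1-labelled and -1.09 ± 0.10 in empty vector cells. In EVI1-labelled cells POLR1A was at 7.70, 7.71 and 7.83 with TPA, against 8.33, 8.46 and 8.30 with ethanol, and in empty vector cells at 7.91, 8.03 and 7.83 with TPA, against 8.40, 8.53 and 8.36 with ethanol. POLR1A, the largest subunit, differed by -0.62 ± 0.09 in EVI1-labelled and -0.51 ± 0.09 in empty vector cells, the smallest of the 4 (largest limma adjusted p = 1.79e-04). The size depends on the probe set: the 2 dimmer ones of POLR1A gave -1.03 and -0.78 in EVI1-labelled and -0.85 and -0.86 in empty vector cells, and a dimmer one of POLR1B, with a mean of 7.90, gave -0.87 in EVI1-labelled and -0.75 in empty vector cells.

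Of the nucleolar proteins 5 of 5 measured fell in both populations. LYAR read 9.14, 8.47 and 8.28 in EVI1-labelled cells with TPA, against 11.04, 10.93 and 10.87 with ethanol, and 9.50, 9.13 and 9.25 in empty vector cells with TPA, against 11.35, 11.23 and 11.41 with ethanol. LYAR, a zinc finger protein of the nucleolus, differed by -2.32 ± 0.17 in EVI1-labelled and -2.04 ± 0.17 in empty vector cells. The signal of NOLC1 with TPA was 10.69, 10.27 and 10.27 in EVI1-labelled cells, against 12.30, 12.35 and 12.42 with ethanol, and 10.29, 9.80 and 10.09 in empty vector cells, against 12.41, 12.28 and 12.37 with ethanol. NOLC1, which escorts small nucleolar RNPs, differed by -1.95 ± 0.13 in EVI1-labelled and -2.29 ± 0.13 in empty vector cells. In EVI1-labelled cells MYBBP1A was at 7.43, 7.24 and 7.51 with TPA, against 8.65, 8.61 and 8.50 with ethanol, and in empty vector cells at 7.55, 7.49 and 7.54 with TPA, against 8.73, 8.79 and 8.76 with ethanol. MYBBP1A, a MYB-binding protein of the nucleolus, differed by -1.19 ± 0.08 in EVI1-labelled and -1.23 ± 0.08 in empty vector cells. NCL read 11.80, 11.71 and 11.60 in EVI1-labelled cells with TPA, against 12.69, 12.69 and 12.68 with ethanol, and 11.74, 11.41 and 11.72 in empty vector cells with TPA, against 12.86, 12.82 and 12.89 with ethanol. NCL, nucleolin, differed by -0.98 ± 0.09 in EVI1-labelled and -1.23 ± 0.09 in empty vector cells. NPM1, nucleophosmin, showed the smallest of the 5, at -0.41 ± 0.09 and -0.57 ± 0.09 (limma adjusted p = 0.00119 and 6.96e-05). Its probe set averaged 13.49, near the top of the table at 14.60, and its 2 dimmer probe sets differed by -0.74 and -0.90 in EVI1-labelled and by -1.15 and -1.03 in empty vector cells.

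The small nucleolar RNPs guide methylation (box C/D) and pseudouridylation (box H/ACA) of ribosomal RNA, and 5 of 5 measured protein members fell in both populations. The signal of NOP58 with TPA was 10.77, 10.43 and 10.26 in EVI1-labelled cells, against 11.80, 11.93 and 11.54 with ethanol, and 10.59, 10.37 and 10.55 in empty vector cells, against 11.92, 11.93 and 11.90 with ethanol. NOP58, a core box C/D protein, differed by -1.27 ± 0.13 in EVI1-labelled and -1.41 ± 0.13 in empty vector cells. In EVI1-labelled cells FBL was at 11.87, 11.66 and 11.72 with TPA, against 12.67, 12.63 and 12.67 with ethanol, and in empty vector cells at 11.35, 10.99 and 11.21 with TPA, against 12.46, 12.39 and 12.64 with ethanol. FBL, fibrillarin, the methyltransferase, differed by -0.91 ± 0.10 in EVI1-labelled and -1.31 ± 0.10 in empty vector cells. RRP9 read 6.59, 6.56 and 7.04 in EVI1-labelled cells with TPA, against 7.68, 7.63 and 7.72 with ethanol, and 6.72, 6.77 and 6.83 in empty vector cells with TPA, against 7.78, 7.86 and 7.94 with ethanol. RRP9, a protein of the U3 RNP needed for early cuts of the precursor, differed by -0.95 ± 0.11 in EVI1-labelled and -1.09 ± 0.11 in empty vector cells. The signal of NHP2 with TPA was 10.87, 10.78 and 10.81 in EVI1-labelled cells, against 12.14, 12.12 and 12.20 with ethanol, and 10.61, 10.45 and 10.53 in empty vector cells, against 12.13, 12 and 12.15 with ethanol. NHP2, a core box H/ACA protein, differed by -1.33 ± 0.08 in EVI1-labelled and -1.56 ± 0.08 in empty vector cells. In EVI1-labelled cells GAR1 was at 9.39, 9.18 and 9.05 with TPA, against 10.46, 10.53 and 10.48 with ethanol, and in empty vector cells at 9.55, 9.43 and 9.36 with TPA, against 10.62, 10.67 and 10.70 with ethanol. GAR1, another core box H/ACA protein, differed by -1.28 ± 0.09 in EVI1-labelled and -1.22 ± 0.09 in empty vector cells (largest limma adjusted p of the 5 genes 7.38e-06).

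**Figure D2:**
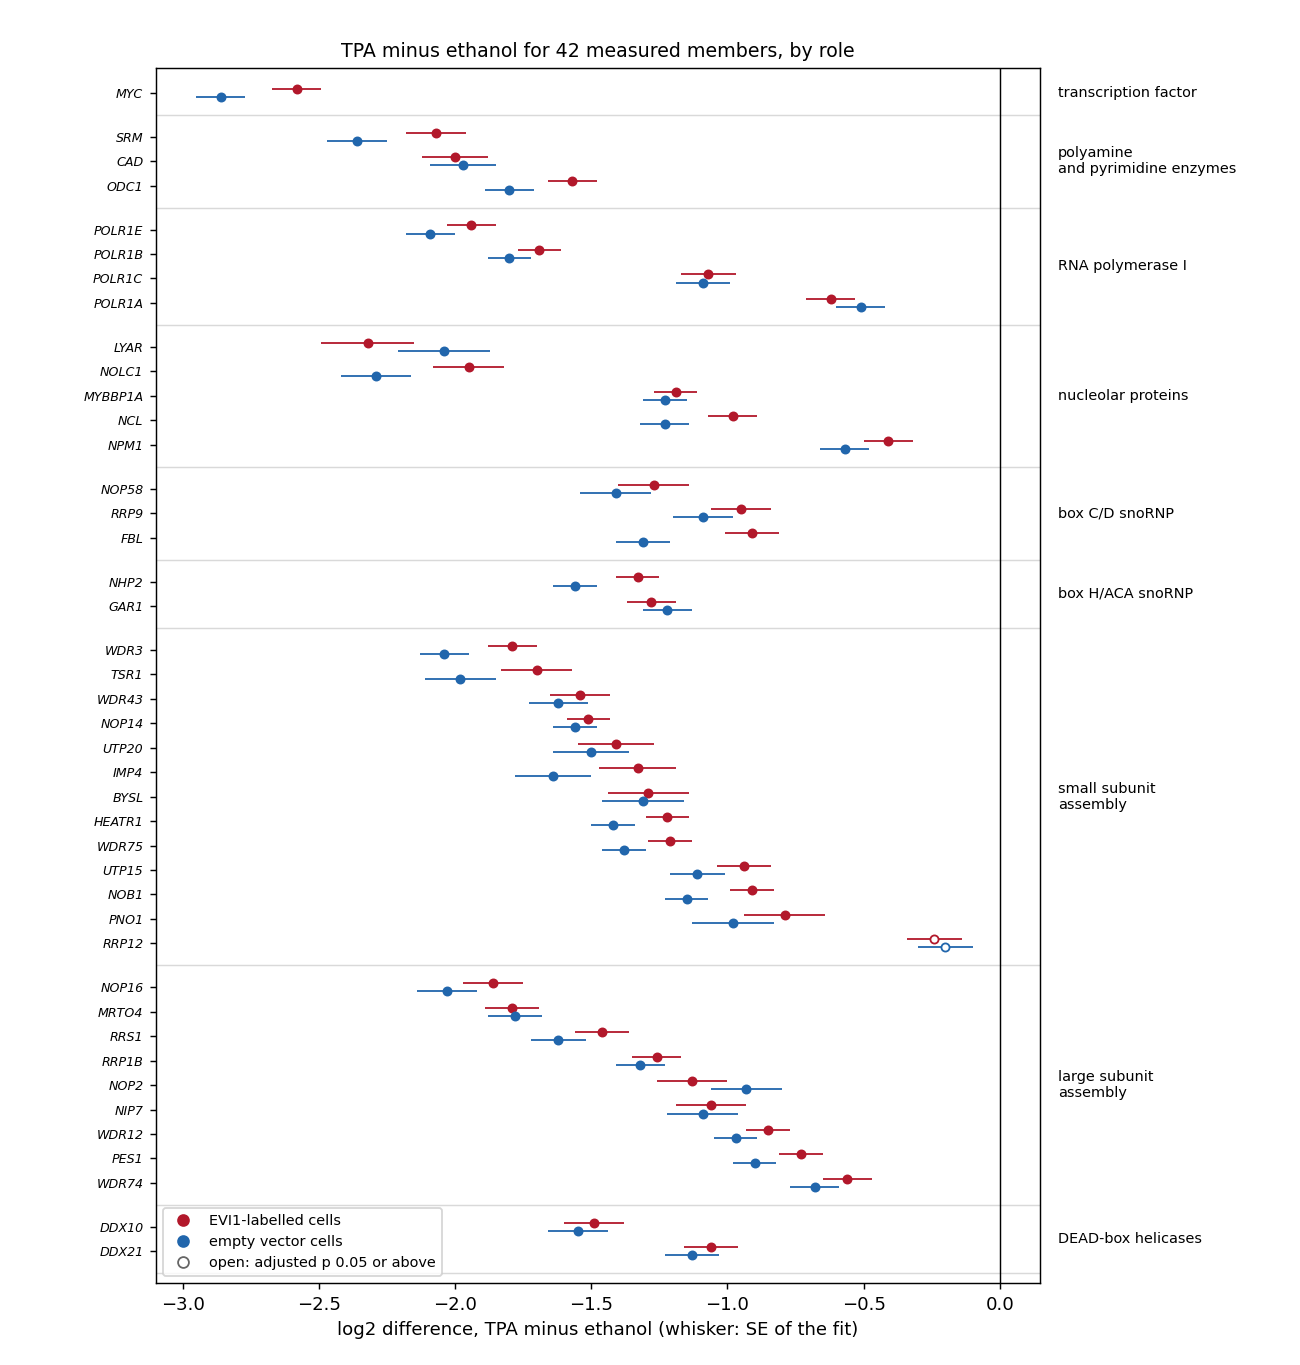
The log2 difference, TPA minus ethanol, of each measured member with the SE of the fit, for EVI1-labelled and empty vector cells, grouped by role. Every point lies left of 0, MYC farthest at -2.58 and -2.86, and RRP12 alone has open points in both populations, at -0.24 and -0.20.

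The small subunit is assembled in a large particle, the processome, around the U3 RNP, and 12 of its 13 measured members here fell in both populations, with medians of -1.29 in EVI1-labelled and -1.42 in empty vector cells. WDR3 read 8.83, 8.61 and 8.53 in EVI1-labelled cells with TPA, against 10.39, 10.54 and 10.42 with ethanol, and 8.60, 8.59 and 8.59 in empty vector cells with TPA, against 10.60, 10.61 and 10.69 with ethanol. WDR3, a WD-repeat protein of the processome, differed by -1.79 ± 0.09 in EVI1-labelled and -2.04 ± 0.09 in empty vector cells. The signal of TSR1 with TPA was 8.38, 8.0 and 8.13 in EVI1-labelled cells, against 9.96, 9.89 and 9.75 with ethanol, and 8.32, 7.83 and 8.17 in empty vector cells, against 10.10, 9.97 and 10.20 with ethanol. TSR1, a late factor that occupies the decoding site, differed by -1.70 ± 0.13 in EVI1-labelled and -1.98 ± 0.13 in empty vector cells. In EVI1-labelled cells WDR43 was at 8.97, 8.74 and 8.48 with TPA, against 10.30, 10.31 and 10.19 with ethanol, and in empty vector cells at 8.86, 8.82 and 8.62 with TPA, against 10.39, 10.29 and 10.47 with ethanol. WDR43, which joins the precursor early, differed by -1.54 ± 0.11 in EVI1-labelled and -1.62 ± 0.11 in empty vector cells. NOP14 read 8.09, 7.90 and 8.10 in EVI1-labelled cells with TPA, against 9.49, 9.55 and 9.57 with ethanol, and 8.38, 8.25 and 8.26 in empty vector cells with TPA, against 9.82, 9.84 and 9.90 with ethanol. NOP14, a processome protein, differed by -1.51 ± 0.08 in EVI1-labelled and -1.56 ± 0.08 in empty vector cells. None of these 4 had TPA and ethanol arrays that overlapped, and their largest limma adjusted p was 8.84e-08. Of the other TSR1 probe sets, those with means of 8.34 and 7.04 gave smaller differences, -0.52 and -1.02 in EVI1-labelled and -0.41 and -1.11 in empty vector cells. The one with a mean of 8.17 gave -1.75 in EVI1-labelled and -1.99 in empty vector cells.

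The other small subunit members that fell were UTP20, IMP4, BYSL, HEATR1, WDR75, UTP15, NOB1 and PNO1, and their differences ran between -1.41 (UTP20) and -0.79 (PNO1) in EVI1-labelled and between -1.64 (IMP4) and -0.98 (PNO1) in empty vector cells. NOB1 is the nuclease that makes the 3' end of 18S ribosomal RNA and PNO1 is its partner, and with UTP15 they had the 3 smallest differences among the 12. A second PNO1 probe set, with a mean of 9.12, gave -0.50 in EVI1-labelled and -0.43 in empty vector cells. RRP12, an export factor of the subunits, was the 1 measured member that was not called. The signal of RRP12 with TPA was 8.89, 8.59 and 8.97 in EVI1-labelled cells, against 9.02, 9.00 and 9.14 with ethanol, and 9.01, 9.18 and 8.99 in empty vector cells, against 9.25, 9.36 and 9.16 with ethanol. The difference was -0.24 ± 0.10 in EVI1-labelled and -0.20 ± 0.10 in empty vector cells (limma adjusted p = 0.0942 and 0.159), and the TPA and ethanol arrays of empty vector cells overlapped. Without EVI1-labelled TPA replicate 3 the RRP12 difference in that population was -0.31 and was called (adjusted p = 0.0357). With arrays centred on the poly-A spike-in controls it was -0.63 and called (adjusted p = 0.0268). Its 4 other probe sets had means between 4.91 and 5.71, against 9.05 for the one used, and with the mean of its probe sets the RRP12 difference was 0.00 in EVI1-labelled and 0.02 in empty vector cells.

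The large subunit factors fell in 9 of 9 measured members in both populations, with medians of -1.13 in EVI1-labelled and -1.09 in empty vector cells. In EVI1-labelled cells NOP16 was at 9.55, 9.25 and 9.62 with TPA, against 11.26, 11.37 and 11.37 with ethanol, and in empty vector cells at 9.44, 9.27 and 9.56 with TPA, against 11.39, 11.53 and 11.44 with ethanol. NOP16, a nucleolar protein of early particles, differed by -1.86 ± 0.11 in EVI1-labelled and -2.03 ± 0.11 in empty vector cells. MRTO4 read 9.39, 9.15 and 9.00 in EVI1-labelled cells with TPA, against 10.99, 11.00 and 10.92 with ethanol, and 9.33, 9.20 and 9.21 in empty vector cells with TPA, against 11.03, 10.92 and 11.12 with ethanol. MRTO4, which holds the place of the stalk protein P0, differed by -1.79 ± 0.10 in EVI1-labelled and -1.78 ± 0.10 in empty vector cells. The signal of RRS1 with TPA was 9.72, 9.64 and 9.44 in EVI1-labelled cells, against 11.04, 11.03 and 11.10 with ethanol, and 9.91, 9.95 and 9.75 in empty vector cells, against 11.39, 11.66 and 11.41 with ethanol. RRS1, which helps bring in the 5S RNP, differed by -1.46 ± 0.10 in EVI1-labelled and -1.62 ± 0.10 in empty vector cells. In EVI1-labelled cells RRP1B was at 10.46, 10.12 and 10.16 with TPA, against 11.54, 11.46 and 11.51 with ethanol, and in empty vector cells at 10.43, 10.45 and 10.55 with TPA, against 11.81, 11.79 and 11.80 with ethanol. RRP1B, a nucleolar protein, differed by -1.26 ± 0.09 in EVI1-labelled and -1.32 ± 0.09 in empty vector cells. The TPA and ethanol arrays did not overlap in any of these 4 (largest limma adjusted p = 5.17e-08). The dimmer probe set of RRP1B, with a mean of 6.38, gave -0.24 in EVI1-labelled and -0.41 in empty vector cells. NIP7, NOP2, WDR12, PES1 and WDR74 had smaller differences, between -1.13 (NOP2) and -0.56 (WDR74) in EVI1-labelled and between -1.09 (NIP7) and -0.68 (WDR74) in empty vector cells. A second WDR74 probe set of similar brightness, with a mean of 8.52 against 8.70, gave -1.09 in EVI1-labelled and -1.16 in empty vector cells. PES1 and WDR12 form a complex with BOP1, and differed by -0.73 ± 0.08 and -0.85 ± 0.08 in EVI1-labelled and by -0.90 ± 0.08 and -0.97 ± 0.08 in empty vector cells.

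Both measured DEAD-box helicases, enzymes that remodel RNA, fell. DDX10 read 8.80, 8.42 and 8.55 in EVI1-labelled cells with TPA, against 10.01, 10.11 and 10.12 with ethanol, and 9.02, 8.75 and 8.88 in empty vector cells with TPA, against 10.31, 10.48 and 10.51 with ethanol. DDX10 differed by -1.49 ± 0.11 in EVI1-labelled and -1.55 ± 0.11 in empty vector cells. The signal of DDX21 with TPA was 11.15, 10.73 and 10.91 in EVI1-labelled cells, against 12.01, 12.03 and 11.94 with ethanol, and 11.11, 10.85 and 10.95 in empty vector cells, against 12.12, 12.09 and 12.10 with ethanol. DDX21, which also takes part in RNA polymerase I transcription, differed by -1.06 ± 0.10 in EVI1-labelled and -1.13 ± 0.10 in empty vector cells (largest limma adjusted p of both 9.94e-07). Probe sets not used above were tested too. Of 44 further probe sets of 25 members, 32 were lower and 0 higher in EVI1-labelled cells and 33 were lower and 2 higher in empty vector cells. Of the 33 of these with a mean of at least 5.07, 29 were lower and 0 higher in each population. With the mean of a gene's probe sets, dim ones included, the difference was smaller by over 1.5 times in 7 members in EVI1-labelled and 8 in empty vector cells, among them CAD, WDR3, PES1, NOP16, RRP1B and DDX10 in both, and larger in NPM1 alone. DDX10 was then at -0.70 in EVI1-labelled and -0.60 in empty vector cells.

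A second question was whether the cells labelled EVI1 differ from empty vector cells in these genes. In ethanol 2 of 42 members were lower in EVI1-labelled cells, against 1.95% of all genes, and 0 were higher, against 1.32%. In TPA 4 of 42 members were called, near the 11.2% of all genes in either direction. Both small counts changed when single arrays were left out. In ethanol 39 of 42 differences were below 0, against 47.1% of all genes, with a median of -0.14, against 0.01 over all genes. The same-number pairs had 39, 29 and 39 members below 0. The arrays of the populations did not overlap, EVI1-labelled lower, in 20 members, against 11.4% of all genes. With arrays centred on the spike-in controls the member median was 0.03 and that of all genes 0.18, so the sign of the member median depends on the scaling, and it lay below that of all genes under both.

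The called members in ethanol were RRS1 and NOP14. RRS1 averaged 11.06 ± 0.04 in EVI1-labelled and 11.49 ± 0.15 in empty vector cells (SD, n = 3 each), a difference of -0.43 ± 0.10 (limma adjusted p = 0.0295), and its EVI1-labelled arrays all lay below the empty vector arrays. The call was lost without any 1 of the 6 ethanol arrays, with adjusted p of 0.053 to 0.131. NOP14 averaged 9.54 ± 0.04 in EVI1-labelled and 9.85 ± 0.04 in empty vector cells, a difference of -0.32 ± 0.08 (limma adjusted p = 0.0477), again with no overlap of arrays. That call was lost without any 1 of 10 arrays (adjusted p of 0.0515 to 0.185), and held only without EVI1-labelled TPA replicate 2 or 3. With spike-in centring neither was called, RRS1 at -0.26 and NOP14 at -0.14 (adjusted p = 0.807 and 0.815). The 20 nearest measured genes along the chromosome had a median population difference of -0.15 around NOP14 and -0.03 around RRS1. MYC differed by -0.07 ± 0.09 in ethanol (adjusted p = 0.849).

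In TPA 2 of 42 members were lower, LYAR and NOP14, near the 5.3% of all genes. As many were higher, FBL and NHP2, near the 5.9% of all genes, and the member median was -0.01. FBL averaged 11.75 ± 0.11 in EVI1-labelled and 11.18 ± 0.18 in empty vector cells (SD, n = 3 each), 0.57 ± 0.10 higher (limma adjusted p = 0.00242), and its arrays did not overlap. It remained called without each of the 12 arrays (adjusted p of 0.00209 to 0.0118), and the spike-in scaling gave 0.70 with an adjusted p of 0.0721. NHP2 averaged 10.82 ± 0.05 in EVI1-labelled and 10.53 ± 0.08 in empty vector cells, 0.29 ± 0.08 higher (limma adjusted p = 0.0257), also without overlap. The NHP2 call was lost without EVI1-labelled TPA replicate 1 or 2 or empty vector TPA replicate 2 or 3 (adjusted p of 0.0508 to 0.0954), with spike-in centring (0.42, adjusted p = 0.624) and in a fit of only the 2 groups (adjusted p = 0.113).

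LYAR averaged 8.63 ± 0.45 in EVI1-labelled and 9.29 ± 0.19 in empty vector cells, a difference of -0.66 ± 0.17 (limma adjusted p = 0.0237), and the arrays overlapped because EVI1-labelled replicate 1 was at 9.14 and empty vector replicate 2 at 9.13. Its other probe set, with a mean of 9.12, differed by -0.44. The LYAR call was lost without EVI1-labelled TPA replicate 2 or 3 or empty vector TPA replicate 1 or 3 (adjusted p of 0.0563 to 0.0988), with spike-in centring (-0.53, adjusted p = 0.304) and in a fit of only the 2 groups (adjusted p = 0.111). NOP14 averaged 8.03 ± 0.11 in EVI1-labelled and 8.30 ± 0.07 in empty vector cells, a difference of -0.27 ± 0.08 (limma adjusted p = 0.0468), and the call held only without EVI1-labelled TPA replicate 3 among the 12 arrays (otherwise 0.0599 to 0.192), and with spike-in centring the difference was -0.14 (adjusted p = 0.947). With the replicate number as a block, NOP2, the methyltransferase of 28S ribosomal RNA, was called too, at -0.42 (adjusted p = 0.0171, against 0.0568 without the block). In TPA the 20 nearest measured genes had a median difference of -0.20 around NOP14, -0.15 around LYAR, 0.07 around FBL and -0.01 around NHP2. MYC differed by 0.20 ± 0.09 in TPA (adjusted p = 0.212).

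**Figure D3:**
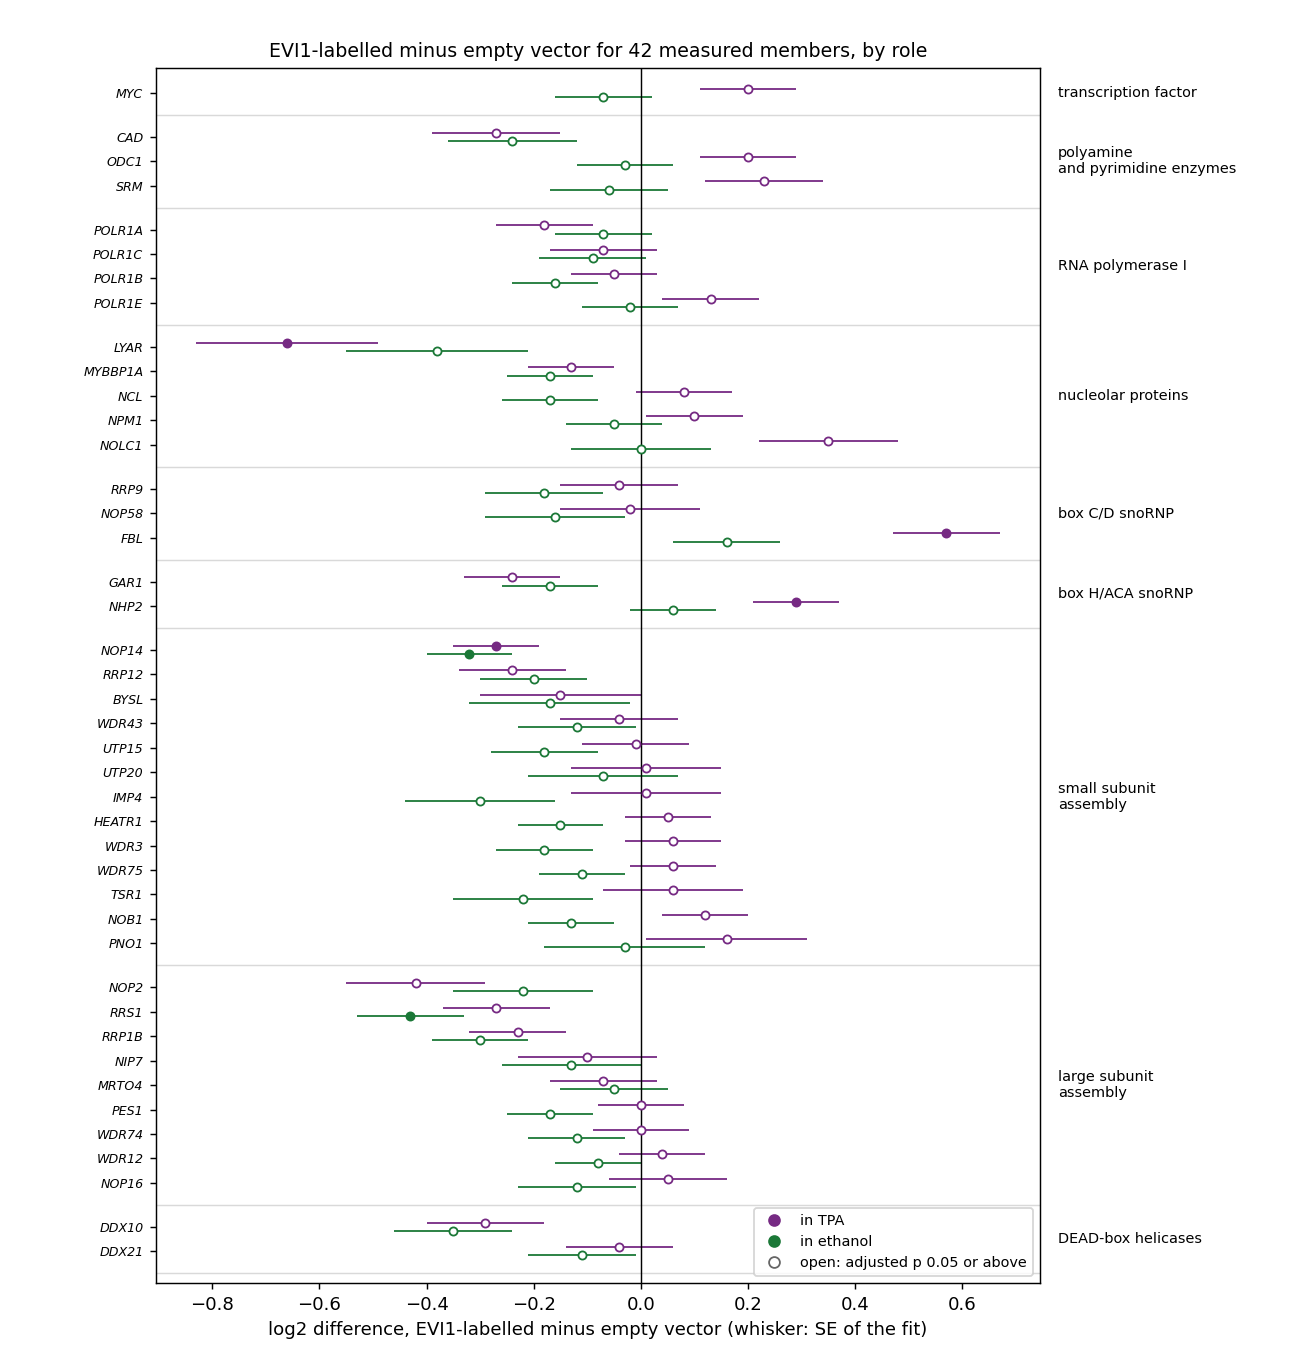
The log2 difference, EVI1-labelled minus empty vector, of each measured member with the SE of the fit, in TPA and in ethanol, grouped by role. In ethanol 39 of 42 points lie below 0 and the filled points, which mark an adjusted p under 0.05, are RRS1 and NOP14, while in TPA the points spread to both sides and FBL, NHP2, LYAR and NOP14 are filled.

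The difference between the TPA responses, EVI1-labelled minus empty vector, was called for 0 of 42 members by limma, against 1.98% of all genes, with 2 members at an unadjusted p under 0.05 and a smallest adjusted p of 0.222. That was FBL, at 0.41 ± 0.14. Over the members the median was 0.14 and 35 of 42 values were above 0, a smaller fall in EVI1-labelled cells, against 51% of all genes above 0. This value equals the population difference in TPA minus that in ethanol, with member medians of -0.01 and -0.14. It uses the same arrays, so the lean above 0 is not separate from the lean below 0 in ethanol. Of the 160 further pathway genes described below, 113 were above 0 as well. For MYC the difference in response was 0.27 ± 0.13 (limma adjusted p = 0.408). Across the 42 members the responses of the populations, which share no array but share probe sets, had a Pearson correlation of 0.96, the same as over all 19775 genes, and the median ratio of the response in EVI1-labelled to that in empty vector cells was 0.90.

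The rest of the pathway was read from 165 further genes in 8 lists, of which 160 were measured, 116 were lower and 14 higher with TPA in EVI1-labelled cells, and 125 were lower and 16 higher in empty vector cells. The shares of all genes called higher with TPA were 19.4% in EVI1-labelled and 20.7% in empty vector cells, beside the 20.6% and 22.5% lower given above. With arrays centred on the spike-in controls 3 of 160 were higher in each population, against 7.13% and 8.24% of all genes, and 125 in EVI1-labelled and 126 in empty vector cells were lower, against 26.5% and 24.6%. In the MYC network, the partners and rivals of MYC at MAX, 7 of 14 were lower and 4 higher in EVI1-labelled, and 8 lower and 5 higher in empty vector cells. In EVI1-labelled cells MXD1 was at 9.75, 10.20 and 9.66 with TPA, against 7.56, 7.48 and 7.35 with ethanol, and in empty vector cells at 9.32, 9.60 and 9.54 with TPA, against 7.04, 6.80 and 7.07 with ethanol. MXD1, a MAX partner that represses E-box genes, rose by 2.41 ± 0.13 in EVI1-labelled and 2.52 ± 0.13 in empty vector cells. MLX, another partner of MXD proteins, rose by 0.82 ± 0.09 in EVI1-labelled and 1.01 ± 0.09 in empty vector cells, and with spike-in centring was at 0.43 in EVI1-labelled cells and not called there (adjusted p = 0.133). MGA, a large MAX-binding repressor, differed by -1.08 ± 0.11 in EVI1-labelled and -1.03 ± 0.11 in empty vector cells, and MYCBP2, a ubiquitin ligase that binds MYC, by -0.74 ± 0.11 in EVI1-labelled and -0.88 ± 0.11 in empty vector cells.

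Further genes of RNA polymerase I fell in 6 of 11 in EVI1-labelled and 8 of 11 in empty vector cells, and none rose. POLR1G read 7.06, 7.24 and 7.01 in EVI1-labelled cells with TPA, against 9.10, 9.33 and 9.20 with ethanol, and 6.94, 6.89 and 7.03 in empty vector cells with TPA, against 9.23, 9.24 and 9.18 with ethanol. POLR1G, the partner of POLR1E in its dimer, differed by -2.11 ± 0.09 in EVI1-labelled and -2.26 ± 0.09 in empty vector cells, while the promoter factor subunit TAF1A differed by -1.01 ± 0.12 in EVI1-labelled and -1.03 ± 0.12 in empty vector cells. Other small subunit genes fell in 30 of 37 in EVI1-labelled and 31 of 37 in empty vector cells, with 1 and 2 higher. NAT10, which acetylates 18S ribosomal RNA, differed by -1.73 ± 0.10 in EVI1-labelled and -1.90 ± 0.10 in empty vector cells, and SNU13, which binds box C/D RNAs, by -1.65 ± 0.10 in EVI1-labelled and -1.78 ± 0.10 in empty vector cells. KRR1 and UTP25 were the 2 that rose in empty vector cells, by 0.42 and 0.25. In EVI1-labelled cells they were at 0.10 and 0.18 and not called (limma adjusted p = 0.529 and 0.14), so the 1 higher there was another gene. With spike-in centring neither was called in empty vector cells, KRR1 at 0.07 (adjusted p = 0.796) and UTP25 at -0.10 (adjusted p = 0.738). The UTP25 call was also lost without empty vector ethanol replicate 1 or 2 or TPA replicate 1 or 3 (adjusted p of 0.0902 to 0.149).

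Other large subunit genes fell in 36 of 44 in EVI1-labelled and 39 of 44 in empty vector cells, with 1 and 2 higher. LAS1L, which cuts the spacer next to 28S ribosomal RNA, differed by -1.72 ± 0.09 in EVI1-labelled and -1.96 ± 0.09 in empty vector cells, and BRIX1, an early assembly factor, by -1.44 ± 0.11 in EVI1-labelled and -1.65 ± 0.11 in empty vector cells. ZNF622 and NMD3, which act on the subunit at export and in the cytoplasm, were the 2 higher in empty vector cells, at 0.57 and 0.41. With spike-in centring neither was called there, at 0.23 and 0.06 (adjusted p = 0.425 and 0.823). In EVI1-labelled cells ZNF622 was called at 0.43 and NMD3 was not called at 0.03 (limma adjusted p = 7.88e-04 and 0.781). That ZNF622 call was lost with spike-in centring, at 0.04 (adjusted p = 0.889). Of the RNA exosome, the 3' trimming complex, 10 of 12 fell in each population. EXOSC2 differed by -2.21 ± 0.15 in EVI1-labelled and -2.31 ± 0.15 in empty vector cells and EXOSC8 by -1.73 ± 0.11 in EVI1-labelled and -1.99 ± 0.11 in empty vector cells, while EXOSC4 rose by 0.57 ± 0.12 in EVI1-labelled and 0.76 ± 0.12 in empty vector cells. The EXOSC4 calls were lost with spike-in centring, at 0.18 in EVI1-labelled and 0.42 in empty vector cells (adjusted p = 0.487 and 0.159).

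RNA polymerase III, which makes 5S ribosomal RNA and transfer RNAs, and its factors fell in 12 of 20 in EVI1-labelled and 14 of 20 in empty vector cells. Of the 20, 4 in EVI1-labelled and 2 in empty vector cells were higher, against 19.4% and 20.7% of all genes. The signal of POLR3G with TPA was 4.70, 4.51 and 4.69 in EVI1-labelled cells, against 7.50, 7.77 and 7.80 with ethanol, and 5.10, 5.24 and 4.66 in empty vector cells, against 7.98, 7.94 and 8.17 with ethanol. POLR3G, a subunit form typical of dividing and stem cells, differed by -3.06 ± 0.14 in EVI1-labelled and -3.03 ± 0.14 in empty vector cells. Its TPA means, 4.63 in EVI1-labelled and 5.0 in empty vector cells, lay below 5.07, so these sizes are not exact. Measured only down to that level, the signal of this probe set was 6.15-fold lower in EVI1-labelled and 7.78-fold lower in empty vector cells. With the mean of its probe sets the POLR3G difference was -1.20 in EVI1-labelled and -1.28 in empty vector cells. Its all-tissue counterpart POLR3GL, named after its values were seen, differed by 0.40 ± 0.10 in EVI1-labelled and 0.13 ± 0.10 in empty vector cells (adjusted p = 0.00524 and 0.338), and the first call was lost with spike-in centring, at 0.01. POLR3K differed by -1.01 ± 0.09 in EVI1-labelled and -1.46 ± 0.09 in empty vector cells, while BRF2, which serves U6 and like promoters, rose by 0.75 ± 0.11 in EVI1-labelled and 0.70 ± 0.11 in empty vector cells and POLR3F by 0.51 ± 0.09 in EVI1-labelled and 0.46 ± 0.09 in empty vector cells. With spike-in centring neither was called in either population, BRF2 at 0.36 in both and POLR3F at 0.12 in both (smallest adjusted p = 0.194).

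Among the other polyamine genes 1 of 8 fell in each population, PAOX, an oxidase, at -0.43 ± 0.11 in EVI1-labelled and -0.41 ± 0.11 in empty vector cells. With the mean of its probe sets PAOX was not called, at -0.20 in EVI1-labelled and -0.08 in empty vector cells (adjusted p = 0.0653 and 0.517). Rises numbered 3 in EVI1-labelled and 4 in empty vector cells. In EVI1-labelled cells SAT1 was at 11.29, 11.29 and 11.79 with TPA, against 10.06, 9.95 and 9.96 with ethanol, and in empty vector cells at 11.63, 11.68 and 11.70 with TPA, against 10.01, 9.90 and 9.88 with ethanol. SAT1, the acetyltransferase that starts polyamine breakdown, rose by 1.47 ± 0.12 in EVI1-labelled and 1.74 ± 0.12 in empty vector cells, and the spermine oxidase SMOX rose by 0.97 ± 0.09 in EVI1-labelled and 0.76 ± 0.09 in empty vector cells. With spike-in centring SMOX was at 0.41 in empty vector cells and was not called there (adjusted p = 0.166). Other nucleotide synthesis genes fell in 14 of 14 in both populations, with medians of -1.72 in EVI1-labelled and -1.90 in empty vector cells. IMPDH2 read 10.46, 10.33 and 10.13 in EVI1-labelled cells with TPA, against 12.58, 12.57 and 12.63 with ethanol, and 9.75, 9.29 and 9.52 in empty vector cells with TPA, against 12.60, 12.44 and 12.71 with ethanol. IMPDH2, the rate-limiting enzyme of guanine nucleotide synthesis, differed by -2.29 ± 0.12 in EVI1-labelled and -3.06 ± 0.12 in empty vector cells, and PFAS, an enzyme of purine synthesis, by -2.53 ± 0.12 in EVI1-labelled and -2.72 ± 0.12 in empty vector cells. With the mean of a gene's probe sets these further differences were smaller by over 1.5 times and still called: SMOX at 0.38 in EVI1-labelled and 0.31 in empty vector cells, SNU13 at -1.0 in EVI1-labelled and -1.08 in empty vector cells, EXOSC2 at -1.46 and POLR3K at -0.53 in EVI1-labelled cells, and MLX at 0.59 and MGA at -0.68 in empty vector cells. With the most variable probe set KRR1 was at 0.55 in EVI1-labelled and 0.75 in empty vector cells, called in both (adjusted p = 0.0463 and 0.00747), and UTP25 was at 0.06 in empty vector cells and not called.

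**Figure D4:**
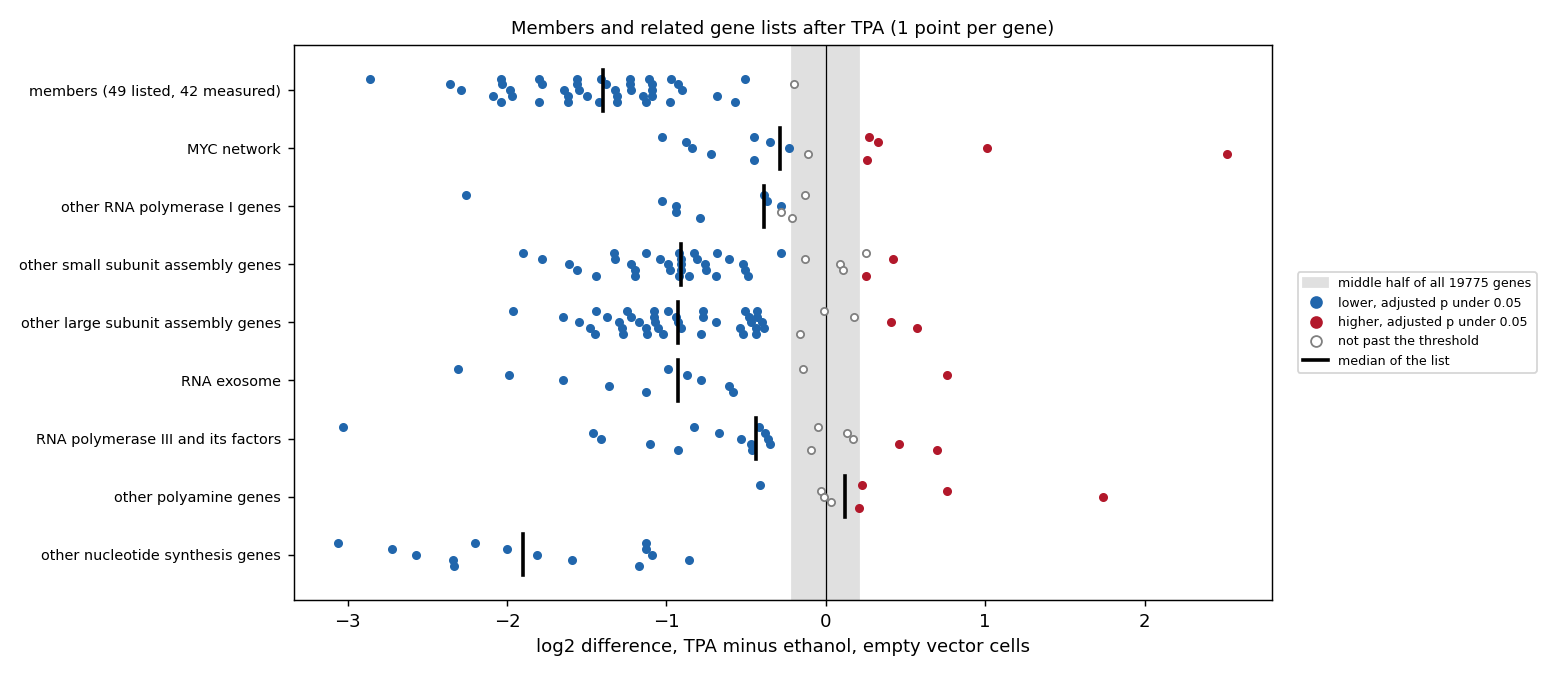
The log2 difference, TPA minus ethanol, in empty vector cells for the members and the 8 further lists, 1 point per gene, with the median of each list as a bar and the middle of all 19775 genes, -0.21 to 0.21, shaded. The member median is -1.40 and that of other nucleotide synthesis genes -1.90, the polyamine genes centre near 0.12, and MXD1 stands alone at 2.52.

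Between the populations in ethanol 5 of 160 further genes were lower and 0 higher in EVI1-labelled cells, against 1.95% and 1.32% of all genes, and they were named after their values were seen: IMP3 at -0.76 ± 0.09, POLR3F at -0.59 ± 0.09, BRF2 at -0.45 ± 0.11, PWP2 at -0.37 ± 0.08 and RRP1 at -0.31 ± 0.08 (largest limma adjusted p = 0.0471). The 20 nearest measured genes had a median of -0.44 around BRF2, -0.35 around POLR3F, -0.14 around IMP3 and -0.10 around each of PWP2 and RRP1. With spike-in centring none of the 5 was called (smallest adjusted p = 0.53). The call of PWP2 was lost without any 1 ethanol array other than EVI1-labelled replicate 3 (adjusted p of 0.0538 to 0.0885) and with the mean of its probe sets. The RRP1 call was lost without any 1 ethanol array, EVI1-labelled TPA replicate 2 or empty vector TPA replicate 1 or 2 (adjusted p of 0.0574 to 0.207), and that of BRF2 without any 1 ethanol array, EVI1-labelled TPA replicate 1 or empty vector TPA replicate 1 or 3 (adjusted p of 0.0511 to 0.215). Those of IMP3 and POLR3F held without each of the 12 arrays. In TPA 8 of 160 were lower and 9 higher, near the 5.3% and 5.9% of all genes, and the difference in response was called for IMPDH2 alone of the 160, against 1.98% of all genes, a call lost with spike-in centring (adjusted p = 0.999).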

How the data were processed

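RNA of the 12 samples, 250 ng each, was labelled with a 3' in vitro transcription kit and hybridised to Affymetrix U133 Plus 2.0 arrays. The deposited values are log2 signals made by the authors with RMA, and the submitters' processing notes name Affymetrix Expression Console 1.3. RMA gives the arrays 1 distribution, which takes out any change shared by most genes. Of 54675 probe sets 41097 named 1 gene, and each of 19775 genes took its probe set with the highest mean. Limma 3.58.1 in R 4.3.3 fitted 1 mean per group over 12 arrays, with two-sided tests, empirical Bayes moderation and a 0.05 threshold after Benjamini-Hochberg adjustment over the genes, and was tested on simulated data. Alternatives were array medians, quantile normalization, spike-in centring, other probe set rules, dim genes left out, a replicate block, trend and robust moderation, only the groups compared and each array left out. The median SE was 0.11, and the number of arrays limits the precision.

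The members, lists and tests were chosen with earlier results of these data known. All members may be named, with values per array for MYC, for up to 4 members per role with the largest TPA difference and for members called between populations, and from each other list up to 2 raised and 2 lowered genes by their TPA difference in empty vector cells. The lowest array median, 5.07, served as a level below which a gene is called dim, since no detection call was used. Same-number arrays correlated in their deviations from group means at 0.415, 0.130 and 0.151 between the populations in TPA, each over 0.1, and by that measure the numbers were taken to pair samples there and in no other comparison. The main fit held no block in any comparison. The labels do not say what a number stands for.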

Additional observations from a re-analysis of the deposited data

Results flagged for a closer look

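One gene of the nucleotide synthesis list differed in its TPA response between the populations by the test of that difference. IMPDH2, the rate-limiting enzyme of guanine nucleotide synthesis, fell by 2.29 ± 0.12 with TPA in EVI1-labelled cells and fell by 3.06 ± 0.12 in empty vector cells (SE of the fit), and the difference, EVI1-labelled minus empty vector, was 0.78 ± 0.17 (limma adjusted p = 0.0344). The TPA arrays read 10.46, 10.33 and 10.13 in EVI1-labelled and 9.75, 9.29 and 9.52 in empty vector cells, without overlap, while the ethanol arrays of the populations overlapped. The call was lost under 10 of 20 alternatives, with an adjusted p between 0.0134 and 0.999. These were spike-in centring and leaving out replicate 1, 2 or 3 of EVI1-labelled cells in ethanol, 1 or 2 in TPA, replicate 1 or 3 of empty vector cells in ethanol and 2 or 3 in TPA, with values of 0.66 to 0.80. Its cause was not tested.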

How the results depend on the processing

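Under every alternative run, 41 or 42 members were lower with TPA in each population. Their median with TPA in EVI1-labelled and empty vector cells was -1.67 and -1.74 with spike-in centring, which moved the median of all genes to -0.39 and -0.33 and the share of lower genes among those called to 78.8% and 74.9%, against 51.4% and 52%, and -1.14 and -1.26 with the mean of a gene's probe sets. With 1 array left out these medians ran between -1.36 and -1.21 and between -1.43 and -1.36. The count of members called between the populations in ethanol, 2, was 1 with quantile normalization, with the most variable probe set and with the replicate block, 0 with spike-in centring (median 0.03), 5 in a fit of only the 2 groups, and 0 to 2 with 1 array left out (median -0.16 to -0.12). In TPA the count of 4 was 0 with spike-in centring (median 0.12), 1 in a fit of only the 2 groups, 5 with the replicate block and 1 to 5 with 1 array left out (median -0.06 to 0.05), lowest without EVI1-labelled replicate 2 or empty vector replicate 3. The difference in response stayed at 0 members called, with medians of 0.09 to 0.17. Calls over all genes between the populations in ethanol numbered 144 with spike-in centring, against 647, and 369 to 787 with 1 array left out. In TPA they numbered 764 with spike-in centring and 1241 in a fit of only the 2 groups, against 2214, and for the difference in response 145 with spike-in centring and 188 to 681 with 1 array left out, against 392. Spike-in centring moved the lower share of calls to 33.3% in ethanol, 32.3% in TPA and 64.1% for the difference in response, against 59.5%, 47.3% and 52.8%. UTP25 with TPA in empty vector cells turned to -0.10 with spike-in centring. The 3' to 5' gap of GAPDH, TPA minus ethanol, was -0.17 (exact permutation p = 0.0476) and lost its call without 9 of 12 arrays, at -0.21 to -0.13. The causes were not tested. In the comparisons where replicate numbers were not taken to pair samples, the block raised the calls over all genes. They numbered 8123, 8779 and 729 for TPA in EVI1-labelled, TPA in empty vector and the populations in ethanol. Every array there correlated best with its own number, a hint from the data only, so pairing in these comparisons is not settled. Apart from NOP14 in ethanol (adjusted p = 0.0512) and NOP2 in TPA, the block changed no call of a member named for a population difference.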
